A study of Mus musculus with 8 samples.

Results

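The 35 heat shock and unfolded protein response genes described here were taken by symbol from a table of 24883 gene rows measured in mouse visual cortex. Of these, 14 code for cytosolic or mitochondrial chaperones and their regulator, and 21 for endoplasmic reticulum (ER) chaperones, folding enzymes and the signalling proteins of the unfolded protein response. Every symbol was found once. None of the genes changed past the threshold after anti-miR-29a treatment. Their differences were small, and 20 of the 34 genes that could be tested lay within 0.1 log2 units of 0. The J-domain protein gene Dnajb5 (1.35-fold) and the ER gene Sdf2l1 (1.37-fold) had more transcript in every treated library than in every control library, with adjusted p of 0.0749 and 0.281 by limma. Such genes made up 5.88% of the tested genes, near the 4.02% of all tested rows. Atf6 had less transcript in every treated library, 2.94% against 2.29%.

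Cells answer misfolded protein in the cytosol and in the ER by separate routes. In the cytosol, chaperones drawn to misfolded protein release the transcription factor HSF1, which binds heat shock elements and drives genes for HSP70, HSP90 and J-domain proteins. In the ER, the membrane proteins IRE1, PERK and ATF6 sense unfolded protein. IRE1 splices the Xbp1 transcript, PERK phosphorylates the translation factor eIF2alpha and so raises ATF4, and cleaved ATF6 moves to the nucleus, and together they drive genes for BiP, other chaperones, folding enzymes and degradation factors. Splicing, phosphorylation and cleavage are not seen in a gene-level RNA table, which shows transcript levels only. Neurons carry high constitutive levels of HSC70 and HSP90, and some heat shock genes in brain also respond to neuronal activity.

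All mice were adult C57BL/6J animals injected into the visual cortex on postnatal day 122, and the cortex was collected 7 days after that, on postnatal day 129. In 4 libraries the injected LNA (locked nucleic acid) oligonucleotide had a scrambled sequence, and in 4 it was complementary to miR-29a. An LNA of this kind binds its microRNA and blocks it. Whether each library comes from its own animal is not stated, and the tests below therefore weigh differences against variation among libraries, some of which may be technical.

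Values are FPKM, fragments scaled to transcript length and library size, so levels can be compared between genes per length. The labels give about 30 M reads per sample. The spacing of low values put relative depths between 0.983 and 1.145 of scrambled replicate 1. This holds only if values were scaled to total reads, and the scaling used is not given. From 12538 to 12769 rows per library reached 1 FPKM. Summed excitatory neuron markers were 1462 to 1523 FPKM in scrambled and 1402 to 1514 FPKM in anti-miR-29a libraries, as cortex should show, and choroid plexus markers were at most 1.70 FPKM. Summed astrocyte markers (292.0 to 465.8 against 345.8 to 622.2 FPKM) and meningeal fibroblast markers (314.1 to 488.8 against 458.6 to 696.9 FPKM) reached higher in the treated libraries. At an unadjusted limma p under 0.05, 2 of 5 astrocyte markers (Gja1, Gfap) and 2 of 3 tested fibroblast markers (Ptgds, Col1a1) stood higher, against 7.54% of all tested rows. Lum was too low to be tested. Ptgds, at 307.4 to 477.3 against 448.8 to 685.8 FPKM, made up nearly all of the fibroblast sum. Gfap, at 109.4 to 248.4 against 163.4 to 392.3 FPKM, made up much of the astrocyte sum, and the astrocyte markers Slc1a3 and Aldh1l1 both differed by -0.0040 log2 units. In bulk tissue, a change in the number of cells of a type and a change in RNA per cell cannot be told apart. Scrambled replicate 1 and anti-miR-29a replicate 1 held next to no Xist (0.0162 and 0.109 FPKM), whereas the other 6 libraries held both Xist (7.59 to 33.1 FPKM) and transcripts of 4 Y-linked genes (8.29 to 20.5 FPKM in sum), so a library may stand for more than 1 animal. The part of any of these in the results was not tested, except where values without those libraries are given.

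The promoters of some of the genes hold known elements of the 2 control systems. RefSeq promoter windows (GRCm38.p6, 250 bases before to 50 after each start) were matched for 28 of the 35 genes and searched on both strands. No window was matched for Hspa8, Hsp90aa1, Hsp90ab1, Hsf1, Manf, Hyou1 and Atf6. The ER stress response element ERSE (CCAAT, any 9 bases, CCACG), bound by NF-Y and ATF6, stood in the windows of 7 of 28 genes, 25%, against 0.137% of 27025 genes. These 7 were Hspa5, Hsp90b1, Calr, Canx, Pdia6, Dnajc3 and Creld2. The related ERSE-II (ATTGG, any 1 base, CCACG) stood in Herpud1 and Dnajb11, 7.14% against 0.0444% of all genes. A heat shock element of 3 units (GAA, TTC and GAA, each 2 bases apart) stood in Hspd1, Hspe1 and Hsph1, 10.7% against 0.662%. Its shorter form GAANNTTC, which the longer one contains, was found in 7 genes, 25% against 9.04%. Hspa1a, Hspa1b, Dnaja1 and Bag3 held the shorter form without the longer one. The other short form, TTCNNGAA, which the longer one also contains, stood in Hsph1, Hspd1 and Hspe1 alone of the 28, 10.7% against 9.60%. The UPRE (TGACGTGG), CRE (TGACGTCA) and CARE (TGATGCAAT) letters were in none of the 28 windows and in 0.714%, 2.03% and 0.222% of all genes. These matches describe the sequence and do not show binding. The ER and heat shock elements are those for which these groups of genes are known, so their high shares are not an independent result. The examples below were chosen because they carry the element for which each group of genes is known, with the motif letters in capitals. Where the element lies on the other strand, its letters are read in reverse complement.
Hspa5, chr2:34772020-34772048, plus strand, ERSE: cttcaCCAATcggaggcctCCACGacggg
Calr, chr8:84847070-84847098, minus strand, ERSE on the other strand: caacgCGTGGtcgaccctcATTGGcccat
Hsp90b1, chr10:86705633-86705661, minus strand, ERSE: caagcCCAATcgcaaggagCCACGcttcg
Dnajb11, chr16:22857847-22857867, plus strand, ERSE-II: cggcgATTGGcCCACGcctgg
Herpud1, chr8:94386372-94386392, plus strand, ERSE-II: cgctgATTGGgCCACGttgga
Hspd1, chr1:55088054-55088081, minus strand, heat shock element: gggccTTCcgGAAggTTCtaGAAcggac
Hspe1, chr1:55088054-55088081, plus strand, heat shock element: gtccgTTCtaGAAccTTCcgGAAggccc
Hsph1, chr5:149636283-149636305, minus strand, heat shock element: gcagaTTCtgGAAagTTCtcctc
Hspd1 and Hspe1, which code for the mitochondrial HSP60 chaperonin and its HSP10 lid, lie head to head, so their lines show the same bases read from opposite strands. The counts of genes with heat shock elements above therefore hold this shared stretch under both names.

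The oligonucleotide was aimed at miR-29a, and few of the 35 genes hold a match to its seed. A search of the longest annotated 3′ UTR (GENCODE M21) for TGGTGCT, the reverse complement of the seed, found a match in 3 of 35 genes, Hspa4, Ern1 and Trib3. Among the 34 tested genes, which leave out Trib3, the share was 5.88%, against 2066 of 13105 tested genes with a 3′ UTR, 15.8%. Dnajb5 held none. The lines below show the mature microRNA (RefSeq, GRCm38.p6) with bases 2 to 8 in capitals, a seed that miR-29b and miR-29c share, and the matches in the 3 genes in capitals.
mmu-miR-29a-3p, chr6:31062673-31062694, minus strand: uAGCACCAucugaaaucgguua
Hspa4, chr11:53261159-53261188, minus strand: ggttgtggggcTGGTGCTttctccatttct
Ern1, chr11:106397878-106397907, minus strand: agttctggatgTGGTGCTggcccagcacag
Trib3, chr2:152337884-152337913, minus strand: gctgtcttctcTGGTGCTggttcatgggac
The values of these 3 genes are given below with their families.

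Across the set, counts were read against those of all 13912 rows with a mean of at least 0.5 FPKM, tested with limma on log2(FPKM + 0.1). On this scale the change of low genes is understated. At a Benjamini-Hochberg adjusted p under 0.05, limma called 0 of the 34 tested genes, and 2 of all rows, 0.0144%. At an unadjusted p under 0.05, 7 genes (20.6%) stood higher in the anti-miR-29a libraries, against 7.54% of all rows, and 2 genes (5.88%) stood lower, against 3.18%. The 7 were Dnajb5, Sdf2l1, Hspa1a, Dnajb1, Dnajb11, Xbp1 and Calr, and the 2 were Atf6 and Ern1. The groups of libraries did not overlap for Dnajb5 and Sdf2l1 on the higher side, 5.88% against 4.02% of all rows, and for Atf6 on the lower side, 2.94% against 2.29%. These shares of non-overlapping genes lie near the background. Of the 34 genes, 25 (73.5%) had a log2 difference above 0, against 56.6% of all rows. The median log2 difference was 0.068 for all 34, 0.084 for the 14 cytosolic and mitochondrial genes and 0.053 for the 20 tested ER genes, beside 0.026 for all rows. All of these differences are anti-miR-29a minus scrambled.

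**Figure D1:**
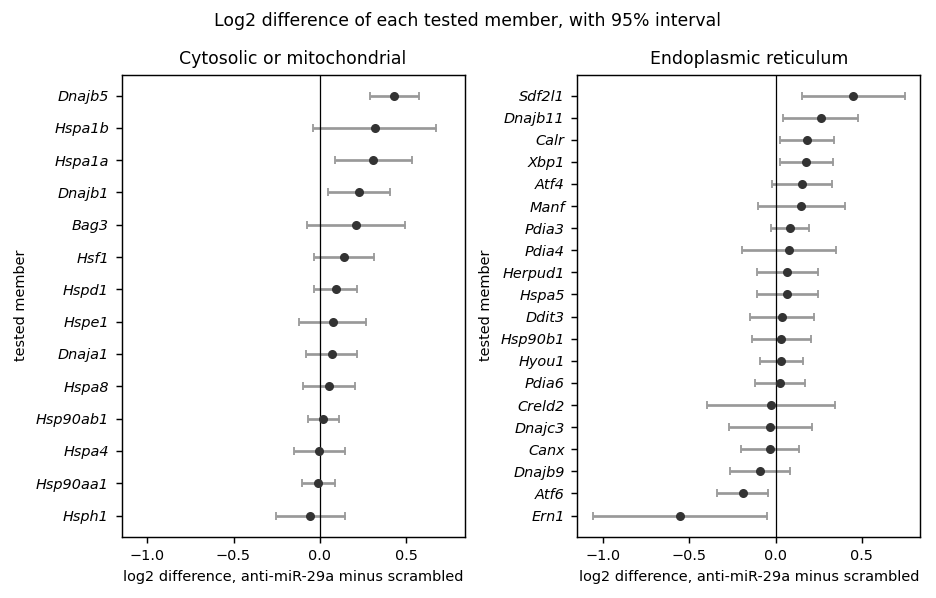
Log2 difference of FPKM + 0.1 (anti-miR-29a minus scrambled) for the 14 tested cytosolic or mitochondrial genes (left) and the 20 tested ER genes (right), points with 95% intervals from limma. Dnajb5 lies at 0.43 with an interval of 0.29 to 0.57, most genes lie close to 0, and Ern1 at -0.55 has the widest interval.

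The J-domain proteins stimulate the ATPase of HSP70 and hand it clients. Dnajb5 (chr4:42949814-42959425, plus strand) codes for one that is expressed in brain. Its scrambled libraries held 53.1, 58.5, 55.2 and 57.6 FPKM, and its anti-miR-29a libraries held 69.98, 80.3, 81.5 and 71.5 FPKM. All 4 treated libraries were above all 4 controls. The means were 56.1 ± 2.45 and 75.8 ± 5.93 FPKM (SD, n = 4 each). The log2 difference was 0.43 (SE 0.063, 95% interval 0.29 to 0.57), with a limma adjusted p of 0.0749, rank 8 by p among all rows. With robust empirical Bayes in limma the adjusted p was 0.0438, and over 21 alternatives it ran from 0.0438 to 0.281. The exact two-sided permutation test over 70 relabellings gave 0.0286, the smallest p it allows. Any gene whose groups do not overlap gets this p, Sdf2l1 and Atf6 among them, so it only restates the lack of overlap.

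Dnajb1 codes for HSP40, the classic heat-inducible partner of HSP70 and part of the feedback that keeps HSF1 inactive. Its scrambled libraries held 13.2, 13.7, 13.1 and 14.5 FPKM, and its anti-miR-29a libraries held 13.9, 16.7, 17.2 and 16.3 FPKM. Anti-miR-29a replicate 1 fell inside the control range, and the other 3 stood above it. On the log2 scale the difference was 0.23 (SE 0.080, limma adjusted p = 0.360). Dnaja1, a constitutive J-domain protein, differed by 0.068 (adjusted p = 0.753) and was lowest in anti-miR-29a replicate 1 among the treated libraries, at 28.9 FPKM, inside the control range of 28.7 to 32.3 FPKM.

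Hspa1a and Hspa1b are the stress-inducible HSP70 genes, and low levels are usual in unstressed tissue. Hspa1a held 4.75, 4.85, 5.62 and 5.27 FPKM in scrambled libraries and 5.59, 6.67, 6.43 and 6.85 FPKM in anti-miR-29a libraries. Hspa1b held 4.06, 3.85, 4.64 and 4.31 FPKM in scrambled libraries and 3.70, 5.63, 6.11 and 6.06 FPKM in anti-miR-29a libraries. In both genes replicates 2 to 4 of the treated group stood above every control and replicate 1 did not: it lay just below the highest control in Hspa1a and below all of them in Hspa1b. The log2 differences were 0.31 (SE 0.10, limma adjusted p = 0.314) and 0.32 (SE 0.16, limma adjusted p = 0.502), the latter 0.49 without anti-miR-29a replicate 1. The coding sequences of the pair (1923 and 1926 nt) are 99.6% identical, so reads may be split between them and the level of each is uncertain.

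HSC70, the constitutive HSP70 encoded by Hspa8, was the most abundant of the 35 transcripts per length. Hspa8 held 621.3, 663.1, 740.6 and 705.6 FPKM in scrambled libraries and 642.7, 683.6, 772.1 and 733.9 FPKM in anti-miR-29a libraries. The groups overlapped over most of their range, and the log2 difference was 0.052 (95% interval -0.098 to 0.20, limma adjusted p = 0.815). The HSP110 proteins Hspa4 and Hsph1, nucleotide exchange factors of HSP70, differed by -0.0026 and -0.054. Hspa4, one of the genes with a seed match, averaged 32.1 FPKM in both groups (SD 1.25 and 2.49, n = 4 each). Bag3, an exchange factor that links HSP70 to selective autophagy, averaged 4.36 ± 0.633 and 5.04 ± 0.476 FPKM (SD, n = 4 each), a log2 difference of 0.21 (SE 0.13, limma adjusted p = 0.589) that was 0.12 without scrambled replicate 2.

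HSP90 chaperones mature kinases and receptors, and both cytosolic forms were abundant. Hsp90aa1, the inducible form, held 203.8, 216.6, 206.1 and 217.1 FPKM in scrambled libraries and 198.7, 207.3, 219.4 and 213.3 FPKM in anti-miR-29a libraries. The groups overlapped, and the log2 difference was -0.0089 with a 95% interval of -0.11 to 0.088. Hsp90ab1, the constitutive form, averaged 471.6 ± 10.3 and 478.9 ± 20.6 FPKM (SD, n = 4 each), a log2 difference of 0.021 (95% interval -0.066 to 0.11). For both the intervals were narrow, and a difference of the size seen for Dnajb5 lay outside them.

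Hsf1, the transcription factor of the heat shock response, held 14.1, 12.7, 14.9 and 14.0 FPKM in scrambled libraries and 15.4, 15.1, 17.0 and 14.2 FPKM in anti-miR-29a libraries. In the treated group, replicates 1 to 3 stood above the controls and replicate 4 inside their range. Its log2 difference was 0.14 (SE 0.078, limma adjusted p = 0.541), and 0.047 with the length and GC trend of each library removed. The mitochondrial chaperonin gene Hspd1 held 37.1, 38.3, 35.4 and 40.4 FPKM in scrambled libraries and 38.5, 41.8, 40.5 and 40.4 FPKM in the treated group, 0.092 higher on the log2 scale (limma adjusted p = 0.589), and 0.046 with that trend removed. Its neighbour Hspe1 differed by 0.075 (limma adjusted p = 0.790). The pair overlap on opposite strands, the library kit does not mark strand, and both genes have pseudogenes named after them, so their values may share reads. In all, 16 of the 35 genes overlap another annotated gene.

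**Figure D2:**
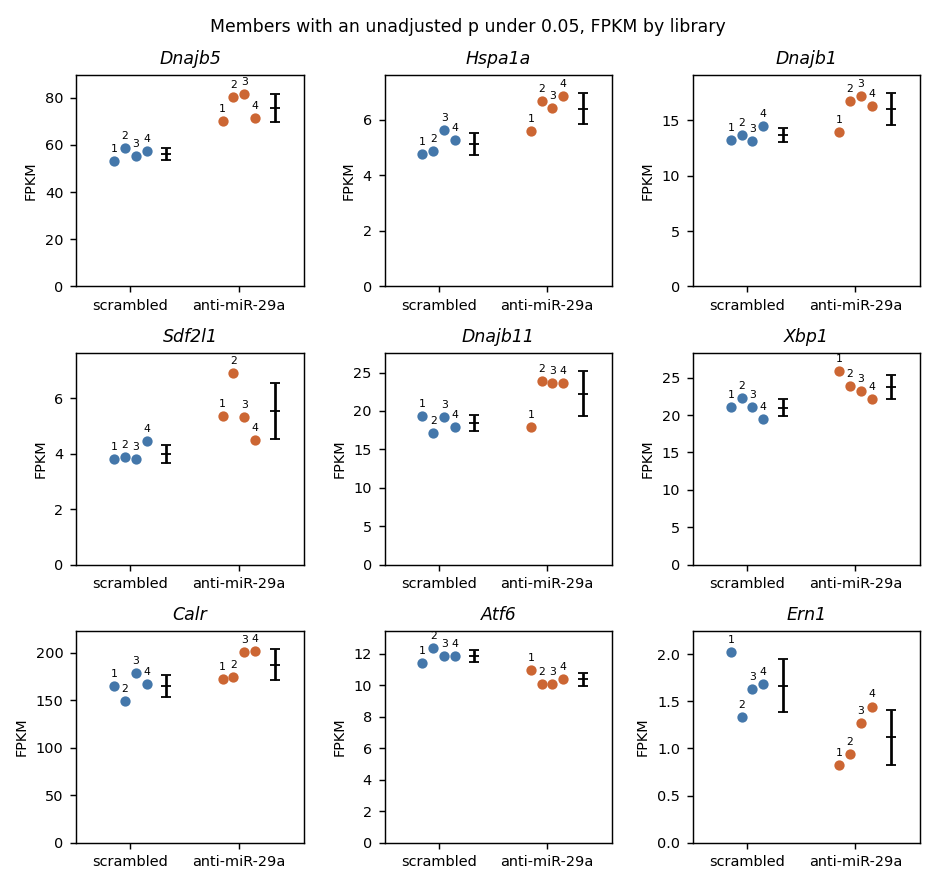
FPKM in each library for the 9 genes with an unadjusted limma p under 0.05, numbered by replicate, with the mean and SD of 4 libraries beside each group. Dnajb5 and Sdf2l1 have every anti-miR-29a library above every scrambled library, Atf6 has every one below, and in Dnajb11 anti-miR-29a replicate 1 lies at 17.9 FPKM, inside the control range.

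In the ER, BiP (Hspa5) and GRP94 (Hsp90b1) are the HSP70 and HSP90 of the lumen and the usual readouts of the unfolded protein response. Hspa5 held 53.2, 52.9, 54.5 and 45.5 FPKM in scrambled libraries and 48.9, 58.3, 57.96 and 51.0 FPKM in anti-miR-29a libraries. Hsp90b1 held 99.3, 86.1, 96.3 and 91.8 FPKM in scrambled libraries and 82.4, 96.1, 104.9 and 99.7 FPKM in anti-miR-29a libraries. In Hspa5, treated replicates 2 and 3 lay above the controls and the other 2 inside their range, and in Hsp90b1 treated libraries lay on both sides of the controls. The log2 differences were 0.068 (95% interval -0.11 to 0.24, limma adjusted p = 0.790) and 0.034 (95% interval -0.14 to 0.20, limma adjusted p = 0.901).

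The partners of BiP did not move as one group. Sdf2l1, which forms a complex with the J-domain protein ERdj3, held 3.79, 3.88, 3.80 and 4.45 FPKM in scrambled libraries and 5.37, 6.91, 5.32 and 4.50 FPKM in anti-miR-29a libraries. The groups did not overlap, but the lowest treated library and the highest control nearly met. The log2 difference was 0.45 (SE 0.13, 95% interval 0.15 to 0.75, limma adjusted p = 0.281). Dnajb11, which codes for ERdj3 itself, held 19.4, 17.1, 19.3 and 17.96 FPKM in scrambled libraries and 17.9, 23.8, 23.6 and 23.6 FPKM in anti-miR-29a libraries. Replicates 2 to 4 of the treated group were alike and above the controls, and replicate 1 lay among the controls. This gave a log2 difference of 0.26 (SE 0.098, limma adjusted p = 0.387). The other J-domain partners, Dnajb9 (ERdj4) and Dnajc3 (p58IPK), differed by -0.090 and -0.030, and the exchange factor Hyou1 by 0.032.

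Calr and Canx code for calreticulin and calnexin, the lectins that fold glycoproteins. Calr held 165.5, 149.5, 178.5 and 167.6 FPKM in scrambled libraries and 172.7, 174.9, 201.3 and 202.2 FPKM in anti-miR-29a libraries. Replicates 3 and 4 of the treated group stood above every control, and the other 2 lay below the highest control. The log2 difference was 0.18 (SE 0.071, limma adjusted p = 0.397) and 0.11 once each library had been corrected for transcript length and GC content. Canx differed by -0.034 (limma adjusted p = 0.899). The disulphide isomerases Pdia3, Pdia4 and Pdia6 differed by 0.082, 0.079 and 0.024, and none had a limma adjusted p under 0.587. The secreted ER factor Manf differed by 0.15 (limma adjusted p = 0.674, and 0.037 without scrambled replicate 4) and the isomerase-like Creld2 by -0.025 (limma adjusted p = 0.970). Herpud1, a membrane protein of ER-associated degradation, held 24.6, 28.7, 23.5 and 25.3 FPKM in scrambled libraries and 28.6, 27.1, 23.9 and 27.4 FPKM in the treated group, which put the log2 difference at 0.068 (limma adjusted p = 0.790). Its highest library was a control.

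Transcripts of 2 sensors had the lowest log2 differences of the set. Atf6 held 11.4, 12.3, 11.9 and 11.8 FPKM in scrambled libraries and 10.9, 10.1, 10.1 and 10.4 FPKM in anti-miR-29a libraries. All 4 treated libraries lay below all 4 controls. The means were 11.9 ± 0.386 and 10.4 ± 0.402 FPKM (SD, n = 4 each), a log2 difference of -0.19 (SE 0.066, 95% interval -0.34 to -0.044, limma adjusted p = 0.351). Ern1, which codes for IRE1alpha and has a seed match, held 2.02, 1.34, 1.63 and 1.68 FPKM in scrambled libraries and 0.820, 0.939, 1.26 and 1.44 FPKM in anti-miR-29a libraries. Scrambled replicate 2 lay below anti-miR-29a replicate 4, so the groups overlapped. On the log2 scale Ern1 differed by -0.55 (SE 0.23, 95% interval -1.06 to -0.051, limma adjusted p = 0.419). Over the alternatives it ran from -0.68 to -0.34. The annotated transcripts of Atf6 (7246 nt) and Ern1 (6946 nt) are longer than those of the other 33 genes. With the length and GC trend removed the log2 differences were -0.13 and -0.53, and the Atf6 groups then overlapped.

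Downstream of the sensors, the transcription factor genes gave mixed values. Xbp1, the target that IRE1 splices, held 21.1, 22.3, 21.0 and 19.5 FPKM in scrambled libraries and 25.9, 23.9, 23.2 and 22.1 FPKM in anti-miR-29a libraries. The lowest treated library lay just below the highest control. The log2 difference was 0.18 (SE 0.068, limma adjusted p = 0.391), and 0.082 with the length and GC trend removed. Atf4, the translationally controlled factor of the integrated stress response, held 59.96, 73.7, 75.1 and 66.9 FPKM in scrambled libraries and 82.1, 79.2, 74.1 and 70.4 FPKM in the treated group, which put the log2 difference at 0.15 (SE 0.078, limma adjusted p = 0.510). Removing the length and GC trend left 0.039, and it was 0.089 without scrambled replicate 1. Anti-miR-29a replicates 1 and 2 stood above every control, and the other 2 lay inside the control range. Ddit3, the pro-apoptotic factor CHOP, held 18.6, 16.4, 20.2 and 16.7 FPKM in scrambled libraries and 20.2, 18.5, 17.2 and 17.7 FPKM in anti-miR-29a libraries. Its log2 difference was 0.038 (95% interval -0.15 to 0.22, limma adjusted p = 0.899), and it overlaps Mars on the opposite strand. Trib3, a pseudokinase induced by ATF4 and CHOP, was below the filter, at 0.359, 0.147, 0.0253 and 0.0517 FPKM in scrambled and 0.379, 0.244, 0.0260 and 0.0529 FPKM in anti-miR-29a libraries. Its level was low in all 8 libraries and differed more between replicates than between groups.

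Library by library, the set did not separate the groups. Anti-miR-29a replicate 1 was the lowest of its group in 23 of the 34 tested genes, 67.6%, against 34.1% of all rows. It was lowest in 12 of the 14 cytosolic and mitochondrial genes and in 11 of the 20 ER genes. The median deviation of the cytosolic and mitochondrial genes from their scrambled mean was -0.042, -0.035, -0.022 and 0.056 log2 units in the scrambled libraries and -0.012, 0.13, 0.18 and 0.11 in the anti-miR-29a libraries. For the ER genes it was 0.051, 0.017, 0.028 and -0.036 in the scrambled libraries and -0.045, 0.080, 0.089 and 0.078 in the anti-miR-29a libraries. In both groups of genes replicates 2 to 4 of the treated group lay above every control library and replicate 1 lay among or below them. In the medians of all tested rows, treated replicates 2 to 4 also lay above every control and replicate 1 among the controls. The order was thus not particular to the set. Among all rows, however, replicate 3 barely passed the highest control, and replicate 1 was lowest of its group less often (34.1% against 67.6%). The medians of all rows were -0.0078, -0.0037, 0.0069 and 0.01157 in the scrambled libraries. In the anti-miR-29a libraries they were -0.0021, 0.068, 0.01163 and 0.038.

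Without anti-miR-29a replicate 1, the groups did not overlap on the higher side for 7 genes, 20.6%, against 7.58% of all rows. These were Dnajb5, Dnajb1, Dnajb11, Hspa1a, Hspa1b, Pdia3 and Sdf2l1. This library is shown left out because it was the lowest of its group in most of the tested genes. The larger share among them therefore restates that pattern and adds no separate evidence. Without replicate 1 of both groups, a step chosen after the data were seen, Canx joined these 7 (23.5% against 10.5% of all rows), and the medians were 0.10 for the cytosolic and mitochondrial and 0.091 for the ER genes. Limma called 0 of the 34 genes in both cases.

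**Figure D3:**
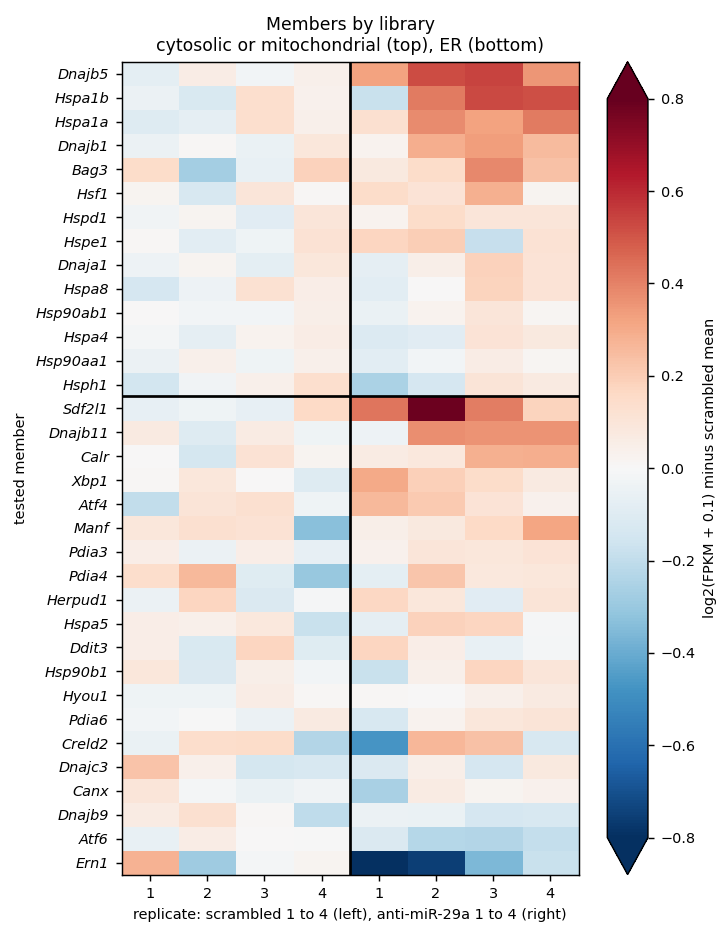
Deviation of log2(FPKM + 0.1) from the scrambled mean for the 34 tested genes (rows) in the 8 libraries (columns), cytosolic or mitochondrial genes above and ER genes below the line. Anti-miR-29a replicate 1, the fifth column, is paler or bluer than replicates 2 to 4 in most rows, and Ern1 and Atf6 are blue in all 4 treated libraries.

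The activity-regulated genes, a list of 15 that includes Fos, Arc and Npas4, are given beside the set because some heat shock genes respond to neuronal activity. Of these, 14 had a log2 difference above 0, and the median of the list was 0.71. The exception was Npas4 at -0.035, and Egr3 lay at 0.10. At an unadjusted limma p under 0.05, 10 (66.7%) stood higher, against 7.54% of all rows. Limma called 0 of the 15 after adjustment. Their median deviation was -0.86, 0.20, 0.42 and 0.18 log2 units in the scrambled libraries and 0.66, 0.92, 0.58 and 0.64 in the anti-miR-29a libraries. Scrambled replicate 1 lay far below the other controls and lowered the scrambled mean, so the size of the 0.71 rests in part on that library. In these medians all treated libraries, replicate 1 included, were above all controls. In the medians of the heat shock and ER genes replicate 1 was not, although it was in Dnajb5 and Sdf2l1 taken singly. The part of neuronal activity in the Dnajb5 difference was not tested.

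**Figure D4:**
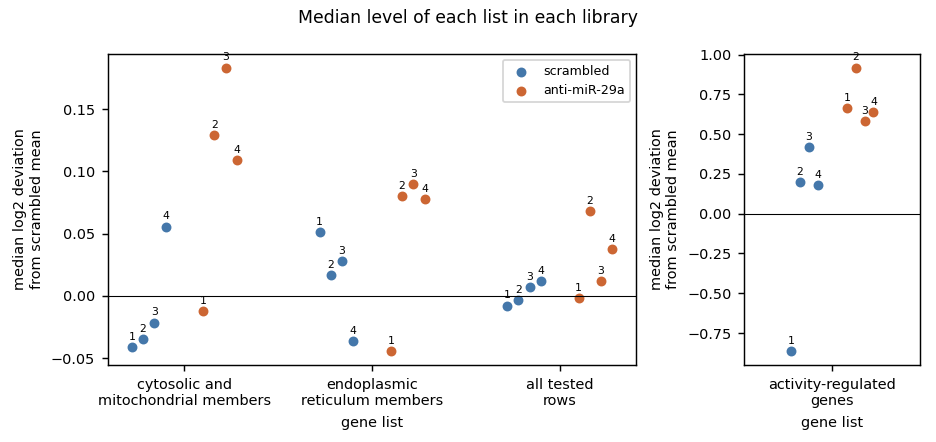
Median log2 deviation from the scrambled mean per library, numbered by replicate, for the cytosolic and mitochondrial genes, the ER genes and all tested rows (left), and for the activity-regulated genes on a wider scale (right). Anti-miR-29a replicate 1 lies at -0.012 and -0.045 in the first 2 lists and at 0.66 in the activity-regulated genes.

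Other genes of the same pathways also gave 0 calls by limma after adjustment. Among 30 further cytosolic chaperones and cochaperones, 20 differences (66.7%) were above 0, against 56.6% of all rows, and the median was 0.021. At an unadjusted p under 0.05, 2 genes (6.67%) stood higher and 1 (3.33%) lower, near the 7.54% and 3.18% of all rows. These were Ahsa1, which activates the HSP90 ATPase (0.18), the small heat shock protein gene Hspb8, a partner of BAG3 (0.40), and the HSP90 cochaperone Sugt1 (-0.28). The kinase-specific HSP90 cochaperone Cdc37 differed by 0.11. The groups did not overlap for Cdc37 on the higher side, 3.33% against 4.02% of all rows, and for Sugt1 on the lower side, 3.33% against 2.29%. The cytosolic chaperonin TRiC folds actin and tubulin, and 6 of its 8 subunits (75%) had differences above 0, with a median of 0.077, or 0.013 once corrected for length and GC. Cct3, Cct7, Tcp1 and Cct5 lay at 0.13, 0.11, 0.10 and 0.096, and none of the 8 had an unadjusted p under 0.05. All 10 mitochondrial chaperones and proteases, Hspd1 and Hspe1 among them, had differences above 0, with a median of 0.10, and 0.041 with that trend removed. Trap1, the mitochondrial HSP90, lay at 0.18 (limma adjusted p = 0.432) and Grpel1, the exchange factor of mitochondrial HSP70, at 0.23 (limma adjusted p = 0.490).

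On the ER side, 14 of 26 further genes of folding, translocation and ER-associated degradation (53.8%) had differences above 0, with a median of 0.0038. At an unadjusted p under 0.05, 3.85% stood higher and 7.69% lower. Sec61a1, the channel of the translocon, held 14.6, 14.98, 14.8 and 13.9 FPKM in scrambled libraries and 16.7, 19.1, 18.7 and 17.9 FPKM in anti-miR-29a libraries. Its groups did not overlap, alone of the 26 on the higher side (3.85% against 4.02% of all rows). The log2 difference was 0.31 (SE 0.065, limma adjusted p = 0.20). The channel subunit Sec61b lay at -0.46 and the BiP exchange factor Sil1 at -0.22, both at an unadjusted p under 0.05, and the ubiquitin ligase Syvn1 at 0.11. Sec61a1 and Sec61b had differences of opposite sign, but neither passed the threshold (limma adjusted p of 0.20 and 0.375), and the Sec61b groups overlapped. On the lower side the groups did not overlap for Sil1 alone, 3.85% against 2.29% of all rows. Of 7 further sensors and transcription factors, 4 (57.1%) had differences above 0 and none had an unadjusted p under 0.05. Their median was 0.059, and -0.037 with the length and GC trend removed. Atf6b lay at 0.15, Eif2ak3, which codes for PERK, at -0.16 and Mbtps2, a protease that cleaves ATF6, at -0.22. Among 23 tested integrated stress response genes, 18 differences (78.3%) were above 0, with a median of 0.053 (0.015 with the trend removed), and 8.70% stood higher at an unadjusted p under 0.05. Sesn2, an ATF4-responsive inhibitor of mTORC1, lay at 0.38 (limma adjusted p = 0.313) and the amino acid transporter subunit Slc3a2 at 0.18 (limma adjusted p = 0.391). Both were higher without overlap between groups, 8.70% of the list against 4.02% of all rows. Ppp1r15b, which directs a phosphatase to eIF2alpha, lay at 0.21, and the stress-induced Nupr1 at 0.50 with wide spread between libraries. Atf3, a further factor of that response, was below the filter.

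Most of the 35 transcripts were tightly measured. The coefficient of variation was under 10% in 27 of the 34 tested genes in the scrambled group and in 26 in the anti-miR-29a group. Mean levels over the 8 libraries ran from 695.4 FPKM for Hspa8, 475.3 for Hsp90ab1 and 210.3 for Hsp90aa1 down to 4.70 for Bag3, 1.39 for Ern1 and 0.161 for Trib3. In the ER group Calr led at 176.5 FPKM, above Hsp90b1 at 94.6 FPKM and Hspa5 at 52.8 FPKM. For the 20 genes within 0.1 log2 units of 0, the 95% intervals together spanned -0.39 to 0.35, so larger differences lay outside all of them.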

How the data were processed

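The deposited table holds FPKM per gene row and library, made by the authors. The tools named per the submitters' processing notes are Bowtie, Cuffnorm and CASAVA 1.8.2, with the build mm10. Their order, annotation, filters and scaling: not given in the sources used here. Per the labels' protocols, the kit was unstranded and reads were paired, 100 bp. Depth per library was not read from counts, so no counting interval is given.

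Rows with a mean of at least 0.5 FPKM (13912 of 24883) entered limma 3.58.1 (R 4.3.3) on the log2(FPKM + 0.1) scale, with the variance trend on and no term but group. P-values are two-sided and Benjamini-Hochberg adjusted across all rows. The fit was tested on simulated data. Members and lists were chosen with earlier results of these data known. Values in every library are given for 15 listed members, for those with an unadjusted p under 0.05 and for those whose groups do not overlap, and up to 4 genes of smallest p are named from each other list. Activity-regulated and marker lists, and the library pattern, are given as values. Gene positions and UTRs came from GENCODE M21, which 23976 of 24346 symbols matched. Alternatives were other pseudocounts, filters, scalings, weights and variance settings, the replicate number as a block, a length and GC correction, and each library left out. Leaving out replicate 1 of both groups was chosen after seeing the data.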

Additional observations from a re-analysis of the deposited data

Results flagged for a closer look

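In 6 of 70 groups of 4 libraries, 1 library lay apart from the other 3 by Dixon's test, and chance alone does so in about 1 group in 20. Anti-miR-29a replicate 1 was the low library in 3 of them: Hspa1b at 3.70 FPKM against 5.63 to 6.11 in the others, Canx at 42.4 FPKM against 51.4 to 53.2, and Dnajb11 at 17.9 FPKM against 23.6 to 23.8. Scrambled replicate 4 lay apart in the remaining 3. Hspa5 was low there at 45.5 FPKM against 52.9 to 54.5, Manf was low at 10.4 FPKM against 14.0 to 14.3, and Sdf2l1 was high at 4.45 FPKM against 3.79 to 3.88. Without scrambled replicate 4 the median log2 difference was 0.12 for the cytosolic and mitochondrial genes and 0.031 for the ER genes.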

How the results depend on the processing

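Of the 34 tested genes, 19 kept the sign of their log2 difference under every alternative run (20 or 21 per gene), among them all 9 with an unadjusted p under 0.05. Dnajb5 ranged from 0.37 to 0.47, with adjusted p from 0.0438 to 0.281, and it passed the threshold with robust empirical Bayes alone, where 10 rows and 1 of the genes were called. The median log2 difference ranged from 0.046 to 0.12 for the cytosolic and mitochondrial genes and from 0.016 to 0.10 for the ER genes. All rows called numbered 1 with no filter, no variance trend or a 5 FPKM minimum, and 0 with the replicate block and with rows of at least 200 nt. Genes lower at an unadjusted p under 0.05 numbered 1 with a mean of at least 5 FPKM, the replicate block, and the length and GC trend removed. Genes whose groups did not overlap on the higher side numbered 1 with a mean of at least 5 FPKM, with median centring and with the length and GC trend removed. The last setting also left 4 genes higher at an unadjusted p under 0.05 and 0 non-overlapping on the lower side. Same-numbered libraries did not deviate together over all tested rows (correlations -0.106 to 0.0143), so the numbers were not read as pairs. Libraries of unlike number gave -0.235 to 0.194. Both libraries with next to no Xist are numbered 1. With 4 libraries per group, the correlations cannot settle whether the numbers mark pairs or batches.

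With the length and GC trend removed, medians of the other lists were -0.0084 (cytosolic), 0.013 (TRiC), 0.041 (mitochondrial), -0.019 (ER), -0.037 (sensors) and 0.015 (integrated stress response). Bag3 lay at 0.12, Manf at 0.066, Pdia3 at 0.044, Pdia4 at 0.026, Hsp90b1 at 0.020, Dnaja1 at 0.14 and Creld2 at -0.15 in that setting.

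Signs changed in genes close to 0. With the length and GC trend removed, Ddit3 lay at -0.10, Hspa8 at -0.027, Herpud1 at -0.035, Hspe1 at -0.057, Pdia6 at -0.046, Hyou1 at -0.0075, Hsp90ab1 at -0.053, Hspa4 at 0.0058, Canx at 0.0011 and Dnajc3 at 0.015. With quantile normalization, Hspa8 lay at -0.10, Hsp90ab1 at -0.080, Hsp90b1 at -0.029, Pdia6 at -0.0079 and Hyou1 at -0.0020. With median centring, Hsp90ab1 lay at -0.0078 and Pdia6 at -0.0054. With sample weights, Dnajc3 lay at 0.0010 and Creld2 at 0.015. With libraries left out, the ranges that crossed 0 were -0.039 to 0.032 (Hspa4), -0.11 to 0.013 (Hsph1), -0.031 to 0.017 (Hsp90aa1), -0.0042 to 0.046 (Hsp90ab1), -0.012 to 0.13 (Hsp90b1), -0.068 to 0.074 (Canx), -0.022 to 0.18 (Pdia4), -0.0034 to 0.075 (Pdia6), -0.077 to 0.075 (Dnajc3), -0.12 to 0.12 (Creld2) and -0.0075 to 0.095 (Ddit3). Rows called then ranged from 1 to 3, genes lower at an unadjusted p under 0.05 from 1 to 2, and non-overlapping genes from 2 to 8 higher and 1 to 2 lower. On the higher side they numbered 8 without replicate 1 of both groups, 7 without anti-miR-29a replicate 1, 5 without scrambled replicate 3, 4 without either replicate 4, and 3 without the control replicate 2 or the treated replicate 3. The share of all rows also rose from 4.02%, to 10.5%, 7.58%, 6.8%, 6.02% and 5.76% (control and treated replicate 4), 5.64% and 7.07% in the same order. On the lower side Dnajb9 joined Atf6 without scrambled replicate 4, and Ern1 did so without the control replicate 2 or the treated replicate 4. Ern1 no longer had an unadjusted p under 0.05 when control replicate 1, 3 or 4 or treated replicate 1 or 2 was left out. The cause of these changes was not tested. Of all rows at an unadjusted p under 0.05, 70.3% were higher, against 47.2% with quantile normalization, 50.6% with median centring and 51.7% with the length and GC trend removed.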
